A study of Homo sapiens with 18 samples.

Results

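The genes of cholesterol and fatty acid synthesis were followed across 6 groups of prostate cancer cells in which the transcription factor ONECUT2 had been changed. The list held 34 genes, chosen with earlier results of these data known. Of these, 31 had a probe set that names 1 gene only. Each gene was read on its brightest probe set, by the mean of the 18 arrays. CYP51A1, FADS1 and FDFT1 were not analysed here. The 31 genes stand beside 19775 genes with such a probe set in the whole series, of which 12159 were tested, those with values above 4 (log2) on 3 or more arrays. All 31 passed that filter.

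Total RNA of 18 samples was measured on 18 Affymetrix U133 Plus 2.0 arrays, 3 for each group, and every value below is a log2 expression value of the deposited table. 22Rv1 is a prostate cancer line that was established from a xenograft, and LNCaP is a prostate cancer line from a metastasis to a lymph node. The groups were 22Rv1 cells with ONECUT2 overexpression, 22Rv1 cells labelled ONECUT2 shRNA, 22Rv1 cells with scramble shRNA, 22Rv1 control cells, LNCaP cells with ONECUT2 overexpression and LNCaP control cells. The overexpressed ONECUT2 was a full-length cDNA in a lentiviral vector with a Myc-DDK tag and puromycin resistance. The shRNAs were carried by pLKO vectors, and lines were selected with puromycin. The treatment label of the control arrays reads vehicle, and whether those cells carried a vector is not given in the sources used here. All cells grew in RPMI medium with serum, which brings cholesterol and fatty acids from outside. The labels name stable lines and leave unsaid whether replicate arrays stem from separate cultures, so the p-values cover only the variation seen among replicate arrays, which may be technical.

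Cells make cholesterol from acetyl-CoA through the mevalonate pathway, squalene and a chain of sterol intermediates, and they build fatty acids from the same precursor by carboxylation, chain synthesis, desaturation and elongation. Both routes are controlled by the sterol regulatory element binding proteins (SREBPs), which the genes SREBF1 and SREBF2 encode. SCAP escorts the SREBPs to the Golgi for activation when sterols are low, and INSIG1 and INSIG2 hold the complex back when sterols are high. In prostate cancer these genes are known for their response to androgens and for feeding membrane growth.

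Within 5 of the groups every pair of arrays correlated at 0.996 or better over the probe sets, and in LNCaP overexpression the lowest pair reached 0.975. Replicate 1 of that group stood apart: its mean correlation with the LNCaP controls was 0.969, against 0.948 and 0.953 for replicates 2 and 3. For the genes of cholesterol and fatty acid synthesis, counts of calls in the comparisons that use LNCaP overexpression are given with and without it. As all arrays entered the same fit, this array also entered the pooled SE of every other comparison. Leaving out this array alone was not tested there, so those calls and missing calls are given with it. All 7 luminal prostate markers passed the filter, and none of the 3 leukocyte markers with a probe set, nor of the 3 endothelial ones, did. Of the 6 fibroblast and smooth muscle markers 3 passed, and in each overexpression comparison 1 of them rose (COL1A1, by 2.12 in 22Rv1 and 3.64 in LNCaP), 1 fell (LUM) and ACTA2 was not called. The summed linear level of these 6 lay between 880 and 940 in 22Rv1 overexpression, against 271 to 313 in 22Rv1 control, and between 1688 and 4172 in LNCaP overexpression, against 291 to 390 in LNCaP control, while COL1A2 and PDGFRB read under 4 on every array. The summed linear level of the 5 proliferation markers lay between 2668 and 3043 in 22Rv1 overexpression, against 13287 to 14808 in 22Rv1 control, and between 427 and 626 in LNCaP overexpression, against 11196 to 11727 in LNCaP control. It lay between 14299 and 15805 on the arrays labelled ONECUT2 shRNA, against 13380 to 14847 in scramble. All 5 fell in both overexpression comparisons. The difference between the 3' and 5' beta-actin control probe sets, which grows as RNA is degraded or shortened, was 8.06 ± 0.70 in 22Rv1 overexpression and 4.11 ± 0.41 in 22Rv1 control (SD, n = 3 each; exact two-sided permutation p = 0.1, the smallest that 3 against 3 arrays allow). In LNCaP it was 2.85 ± 0.56 with overexpression and 2.94 ± 0.25 in control (SD, n = 3 each). The same difference for GAPDH moved far less, at -0.43 ± 0.13 in 22Rv1 overexpression and -0.70 ± 0.09 in 22Rv1 control (SD, n = 3 each). For GAPDH in LNCaP it was -0.68 ± 0.07 in both groups. The part that proliferation, COL1A1 and RNA integrity play in the results below was not tested.

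ONECUT2 itself went against 1 of the labels on 3 probe sets. Probe set 230271_at gave 8.29, 8.69 and 8.73 on the arrays labelled ONECUT2 shRNA, against 6.58, 6.71 and 6.51 in scramble, a difference of 1.97. Probe set 239911_at differed by 2.05 and 233446_at by 1.74 in the same direction. The others did not show this: 207676_at read under 4 in both groups and was not called (0.17, adjusted p = 0.792), and 233441_at read under 4 on every array. The arrays with that label are therefore called the arrays labelled ONECUT2 shRNA, and no direction below is read as an effect of less ONECUT2. Probe set 207676_at rose with overexpression, at 4.78, 4.14 and 4.21 in 22Rv1 overexpression, against 3.05, 3.44 and 3.25 in 22Rv1 control, and at 5.23, 7.17 and 7.43 in LNCaP overexpression, against 2.99, 2.74 and 3.04 in LNCaP control. LNCaP overexpression replicate 1 had the lowest value of its group. In 22Rv1 overexpression against control, 230271_at and 239911_at differed by 1.16 and 0.54, but 233446_at fell by 0.97 (adjusted p = 0.00234). In scramble ONECUT2 was lower than in 22Rv1 control on 3 probe sets, with differences of -1.41 for 239911_at, -1.72 for 233446_at and -0.60 for 230271_at, all called, so scramble is not at the ONECUT2 level of the control.

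In 22Rv1 cells the genes of cholesterol and fatty acid synthesis were mostly lower with ONECUT2 overexpression, while a single desaturase gene, SCD5, was far higher. Of the 31 genes, 18 fell and 2 rose, and 11 were not called (limma, adjusted p under 0.05). Among all 12159 genes tested 24.3% fell, 36.5% rose and 60.8% were called in either direction. The median log2 difference of the 31 genes was -0.74, against 0.10 over all genes tested, and 26 of the 31 differences were negative. The arrays of the groups did not overlap for 24 of the 31 genes, where 76.7% of all genes did not overlap. In a sample of many cells, fewer cells of a kind and less RNA per cell cannot be told apart.

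**Figure D1:**
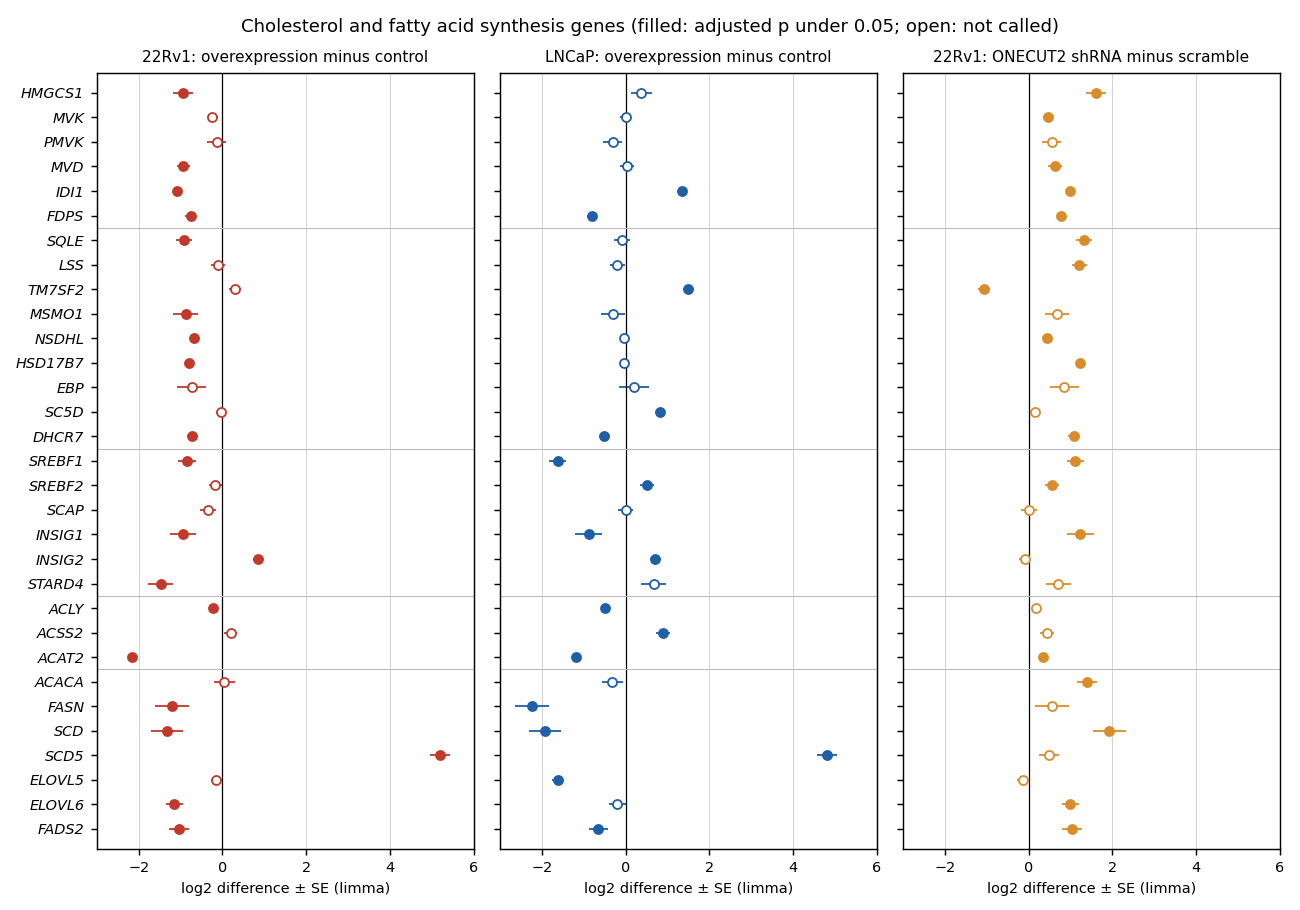
Log2 differences (x axis, mean ± SE from limma) of the 31 genes, ordered by role from the mevalonate pathway at the top to fatty acid modification at the bottom, for 22Rv1 overexpression, LNCaP overexpression and the arrays labelled ONECUT2 shRNA. Filled points were called at an adjusted p under 0.05: 20 in 22Rv1 overexpression, 17 in LNCaP overexpression and 19 for the arrays labelled ONECUT2 shRNA; SCD5 lies far to the right in both overexpression panels.

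The first steps supply and use acetyl-CoA. ACAT2, the cytosolic thiolase that joins acetyl-CoA units at the start of the mevalonate pathway, gave 8.89, 8.68 and 8.98 in 22Rv1 overexpression, against 11.03, 10.92 and 11.13 in 22Rv1 control. All overexpression arrays lay about 2 log2 units under every control array, and the difference was -2.17 ± 0.09 (SE, adjusted p = 1.2e-11), the largest fall of the 31 genes in this comparison. ACLY, which makes acetyl-CoA from citrate, differed by -0.22 ± 0.07 (adjusted p = 0.0175) on the probe set used. That call was lost without 22Rv1 control replicate 3 (adjusted p = 0.0735) or overexpression replicate 2 (adjusted p = 0.0965). The other ACLY probe sets gave larger falls of -1.17 and -2.87, so the size of the change of ACLY depends on the probe set. ACSS2, which makes acetyl-CoA from acetate, differed by 0.19 and was not called.

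Of the 6 mevalonate pathway genes, 4 fell and none rose. IDI1, the isopentenyl diphosphate isomerase, gave 9.58, 9.47 and 9.43 in 22Rv1 overexpression, against 10.55, 10.54 and 10.62 in control, a difference of -1.08 ± 0.11 (adjusted p = 2e-07). Its probe set can read related sequences, and of its other probe sets 208881_x_at gave -1.06, but 233014_at rose by 1.06, so the direction of IDI1 is uncertain. HMGCS1, the HMG-CoA synthase, gave 10.14, 10.52 and 10.32, against 11.27, 11.13 and 11.40, and FDPS, the farnesyl diphosphate synthase, gave 10.86, 10.77 and 10.65, against 11.34, 11.64 and 11.58. Every overexpression array of both genes lay under every control array, and the differences were -0.94 and -0.76. MVD, the mevalonate diphosphate decarboxylase, read under 4 on all 3 overexpression arrays, so its fall is given as at least 1.16-fold. With all values under 4 set to 4, a setting chosen after seeing the data, MVD was not called (adjusted p = 0.168). The kinases MVK and PMVK differed by -0.24 and -0.14 and were not called on the probe sets used. The other MVK probe set, 215649_s_at, fell by 1.32 (adjusted p = 6.01e-06), so the result for MVK depends on the probe set.

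Among 9 genes of squalene and the sterol steps, 5 fell and none rose. SQLE, the squalene epoxidase and a rate-limiting enzyme of the pathway, gave 9.95, 9.80 and 9.83 in 22Rv1 overexpression, against 10.83, 10.78 and 10.75 in control. The groups did not overlap, and SQLE fell by 0.92 (adjusted p = 0.000505). MSMO1, which removes sterol methyl groups, differed by -0.88, DHCR7, which makes cholesterol in the last step, by -0.72, and NSDHL, a sterol dehydrogenase, by -0.68, and all were called. HSD17B7, which acts beside NSDHL, differed by -0.80 on a probe set that can read related sequences. EBP at -0.74, LSS at -0.11, SC5D at -0.05 and TM7SF2 at 0.29 were not called on the probe sets used. The other EBP probe set, 213787_s_at, was called lower at -1.10 (adjusted p = 0.00218). For LSS, probe set 211018_at was called higher at 0.64 (adjusted p = 0.000827), while 211019_s_at, at -0.12, was not called. Both EBP probe sets were thus lower. The one used gave 9.24, 9.17 and 9.01, against 9.67, 9.82 and 10.15, with no overlap. Its SD in LNCaP overexpression, 1.14, entered the pooled SE. The result for LSS depends on the probe set.

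In the SREBP system SREBF1 was called lower and SREBF2 and SCAP were not called. SREBF1 gave 7.34, 7.23 and 7.38 in 22Rv1 overexpression, against 8.15, 8.22 and 8.12 in 22Rv1 control, and fell by 0.84 (adjusted p = 0.00268). Its second probe set, 1558875_at, differed by -0.21 and was not called (adjusted p = 0.156). SREBF2 gave 5.56, 5.47 and 5.08, against 5.64, 5.57 and 5.42, and was not called (difference -0.17, adjusted p = 0.378). SCAP gave 6.67, 6.26 and 6.24, against 6.59, 6.78 and 6.82, and was not called either (adjusted p = 0.117). For SREBF2 and SCAP the arrays of the groups overlapped, while those of SREBF1 were separate.

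INSIG1 gave 10.57, 10.68 and 10.38 in 22Rv1 overexpression, against 11.46, 11.37 and 11.63 in control, a difference of -0.94 ± 0.32 (adjusted p = 0.0186). INSIG2 gave 7.69, 7.65 and 7.53, against 6.76, 6.70 and 6.85, a difference of 0.85 ± 0.13 (adjusted p = 3.24e-05). So the INSIG genes, whose proteins share a role, were called in opposite directions, with no overlap of arrays for either. The INSIG1 call was lost without control replicate 3 (adjusted p = 0.0575) or overexpression replicate 3 (adjusted p = 0.06), while both of its other probe sets fell, by 2.00 and 1.65. STARD4, which carries cholesterol between membranes inside the cell, gave 7.76, 7.75 and 7.84, against 9.45, 9.12 and 9.20, a difference of -1.47 ± 0.30.

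The fatty acid genes held the largest rise of the 31 genes in 22Rv1 and several of the larger falls. SCD5, a stearoyl-CoA desaturase that rodents lack, gave 8.91, 8.87 and 8.86 in 22Rv1 overexpression, against 3.68, 3.27 and 4.07 in 22Rv1 control. The controls thus lay at about the filter value of 4 and the overexpression arrays far over it. The measured difference was 5.21 ± 0.24 (adjusted p = 5.29e-11), and with values under 4 set to 4 it was 4.86, which is taken as the lower bound. SCD, the main stearoyl-CoA desaturase, gave 10.58, 10.62 and 10.51, against 11.89, 11.87 and 11.94, and fell by 1.33 (adjusted p = 0.00729). FASN, the fatty acid synthase, gave 8.37, 8.36 and 8.31, against 9.47, 9.66 and 9.51, and fell by 1.20 (adjusted p = 0.0171). Neither gene's groups overlapped.

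ELOVL6, which elongates saturated fatty acids, gave 10.32, 10.48 and 10.42 in 22Rv1 overexpression, against 11.58, 11.45 and 11.64 in control, and fell by 1.15. ELOVL5, which elongates polyunsaturated fatty acids, gave 12.74, 12.81 and 12.79, against 12.94, 12.87 and 12.96, and was not called (difference -0.14). FADS2, a desaturase of polyunsaturated fatty acids, gave 4.94, 5.14 and 4.64, against 5.90, 6.11 and 5.84, and fell by 1.04. ACACA, the acetyl-CoA carboxylase, differed by 0.05 and was not called, although its other probe set differed by -0.75 (adjusted p = 0.000437). Of the 16 other probe sets of called genes, 14 had the sign of the probe set used.

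**Figure D2:**
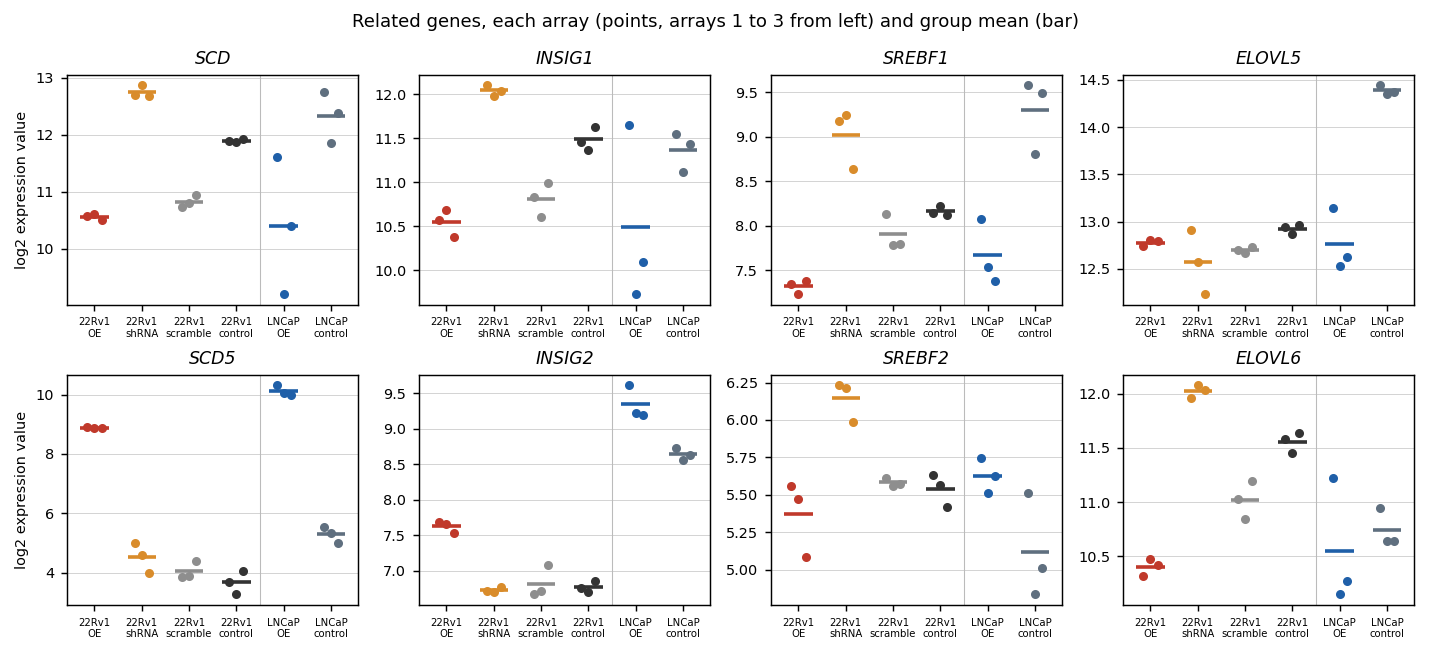
Log2 values of related genes on every array (points) with group means (bars), for 22Rv1 overexpression (OE), the arrays labelled ONECUT2 shRNA, scramble and control, and for LNCaP overexpression and control. SCD and INSIG1 were lower and SCD5 and INSIG2 higher in both overexpression groups than in the control of the same line, apart from LNCaP overexpression replicate 1, which lay above the controls for INSIG1 (11.65).

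In LNCaP cells with ONECUT2 overexpression the called genes were divided between the directions: 10 fell, 7 rose and 14 were not called. Among all genes tested 28.0% fell, 34.1% rose and 62.2% were called. The median log2 difference of the 31 genes was -0.08, against 0.09 over all genes, and the arrays of the groups did not overlap for 15 genes, where 58.2% of all genes did not overlap. Without replicate 1 of the overexpression group, 14 genes fell and 8 rose, while 32.8% of all genes fell, 39.9% rose and 72.7% were called in either direction.

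SCD5 was again the largest rise, with 10.31, 10.05 and 9.97 in LNCaP overexpression, against 5.54, 5.35 and 5.00 in LNCaP control, a difference of 4.82 ± 0.24 (adjusted p = 5.28e-11). TM7SF2, a sterol reductase, gave 11.44, 11.16 and 10.85, against 9.57, 9.82 and 9.54, and rose by 1.50 ± 0.14 (adjusted p = 1.35e-07). IDI1 gave 11.24, 11.28 and 11.43, against 9.94, 9.95 and 10.01, and rose by 1.35 (adjusted p = 1.2e-08). Every overexpression array of these 3 genes lay above every control array.

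ACSS2 gave 7.80, 8.54 and 8.53 in LNCaP overexpression, against 7.60, 7.25 and 7.35 in control, and rose by 0.89 (adjusted p = 0.000195). SC5D, a sterol desaturase, differed by 0.82 and was called higher. INSIG2 gave 9.61, 9.22 and 9.19, against 8.73, 8.55 and 8.63, and rose by 0.71 (adjusted p = 0.000202). The overexpression arrays of ACSS2 and INSIG2 all lay above the controls, with replicate 1 the lowest of its group for ACSS2 and the highest for INSIG2. SREBF2 gave 5.74, 5.51 and 5.63, against 5.51, 4.83 and 5.01, and rose by 0.51 (adjusted p = 0.0122), a call lost without control replicate 2 (adjusted p = 0.0765).

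FASN gave 8.28, 6.27 and 7.35 in LNCaP overexpression, against 10.32, 8.59 and 9.72 in control, and fell by 2.24 ± 0.40 (SE, adjusted p = 0.000155). SCD gave 11.61, 9.21 and 10.40, against 12.75, 11.86 and 12.38, and fell by 1.92 (adjusted p = 0.000449). For both genes the overexpression arrays lay under all controls but were spread over 2 log2 units or more. SREBF1 gave 8.08, 7.54 and 7.38, against 9.58, 8.81 and 9.49, and fell by 1.63 (adjusted p = 5.71e-06), while its second probe set differed by 0.0038 and was not called.

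ELOVL5 gave 13.14, 12.53 and 12.63 in LNCaP overexpression, against 14.45, 14.35 and 14.37 in LNCaP control, and fell by 1.62 (adjusted p = 5.7e-08). Its second probe set fell by 4.73. ELOVL6 gave 11.22, 10.15 and 10.28, against 10.95, 10.64 and 10.64, with overlapping arrays and no call (difference -0.19), while its probe set 227491_at rose by 0.80 (adjusted p = 0.0206), so its direction in LNCaP is uncertain. ACAT2 gave 9.44, 9.41 and 9.49, against 10.68, 10.60 and 10.64, and fell by 1.19 (adjusted p = 4.77e-09), with no overlap and a narrow spread in both groups. FDPS at -0.80, DHCR7 at -0.51 and ACLY at -0.49 were also called lower. LSS, at -0.20 on the probe set used, was not called, though 211018_at was called higher at 0.55 (adjusted p = 0.00271).

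INSIG1 gave 11.65, 9.73 and 10.09 in LNCaP overexpression, against 11.55, 11.12 and 11.44 in control, and was called lower (difference -0.88, adjusted p = 0.026) although replicate 1 lay above all controls. Without that array the difference was -1.46 (adjusted p = 1.34e-08), and the call was lost without overexpression replicate 2 (-0.50) or 3 (-0.68), or without control replicate 1 or 3 (adjusted p = 0.0806 and 0.0654). FADS2 gave 8.31, 7.29 and 7.51, against 8.52, 7.92 and 8.62, and was called lower (difference -0.65, adjusted p = 0.0225), a call lost without any 1 of 4 arrays: overexpression replicate 2 (adjusted p = 0.119) or 3 (0.0844), or control replicate 1 (0.0799) or 3 (0.0999). SCAP gave 5.80, 6.52 and 6.65, against 6.22, 6.31 and 6.43, with overlapping arrays and no call.

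Replicate 1 of LNCaP overexpression read above both other arrays of its group for 22 of the 31 genes, below both for 6 and between them for 3. Among all genes tested it was above both for 40.0% and below both for 47.2%. For 9 of the 31 genes it exceeded the mean of the others by over 1 log2 unit, against 9.52% of all genes. For STARD4 it lay 1.72 above the control mean, with the others at 0.07 and 0.23. For HMGCS1 the 3 arrays lay at 1.19, -0.17 and 0.11. EBP ran the other way, at -1.12 on replicate 1 and at 0.86 and 0.85 on the others. LNCaP control replicate 1 was likewise the highest of its group for most of the 31 genes. The exceptions were MVK, PMVK, MVD, IDI1, TM7SF2, EBP, SC5D, SCAP, ACACA and FADS2. The share of all genes for which it was highest was not counted. For SCD and FASN both LNCaP groups ran in the same order, with replicate 1 highest and replicate 2 lowest. The labels do not say whether arrays with the same number share a culture or day.

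Without LNCaP overexpression replicate 1 a further 5 genes were called in LNCaP. SQLE differed by -0.42, MSMO1 by -0.80, ACACA by -0.67 and ELOVL6, on the probe set used, by -0.53, and EBP by 0.86 (largest adjusted p of the 5 = 0.00229). All genes called with every array were also called without it, in the same direction.

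**Figure D3:**
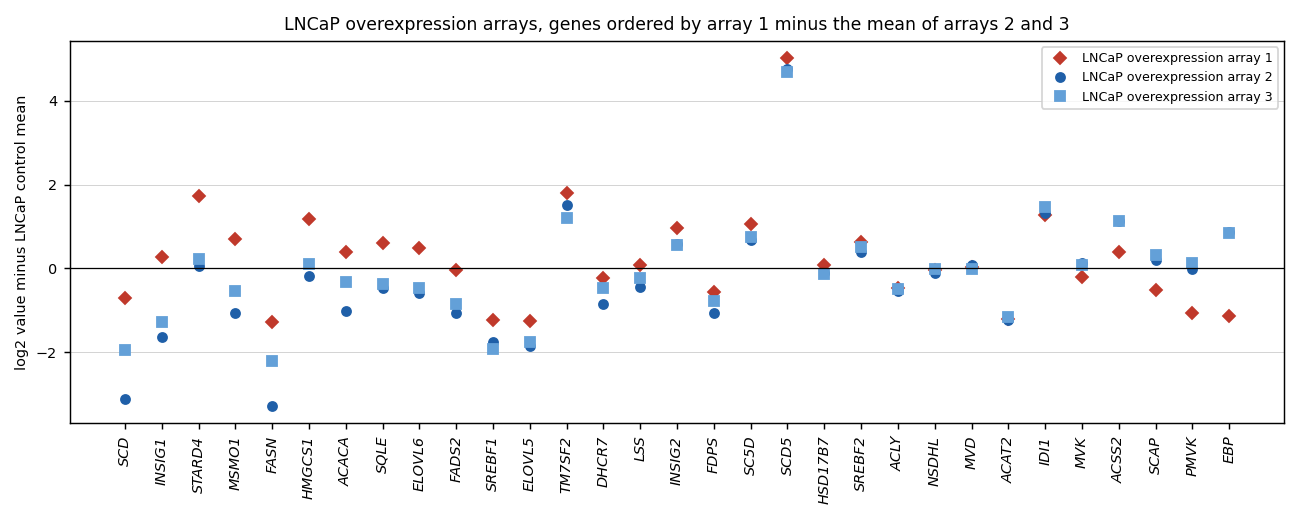
Log2 value on each LNCaP overexpression array minus the LNCaP control mean (y axis) for the 31 genes, ordered by how far array 1 lay above the mean of the others. Array 1 (diamonds) lay above both other arrays for 22 genes and below both for 6; the SCD5 arrays lay between 4.68 and 5.02.

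The lines thus shared some falls and differed in others. Of the 18 genes lower in 22Rv1 overexpression, 9 were lower in LNCaP overexpression (50.0% of the 18 and 90.0% of the 10 in LNCaP): ACAT2, ACLY, DHCR7, FADS2, FASN, FDPS, INSIG1, SCD and SREBF1. In each line SREBF1 was called only on the probe set used. Among all genes, 58.2% of those lower in 22Rv1 were lower in LNCaP, and 50.4% of those lower in LNCaP were lower in 22Rv1. SCD5 and INSIG2 were higher in both lines. IDI1 was lower in 22Rv1 and higher in LNCaP on the probe set used, while 233014_at rose by 1.06 in 22Rv1 and was not called in LNCaP (-0.24). These comparisons share no arrays.

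The test of the difference itself, the overexpression effect in LNCaP minus that in 22Rv1, called 13 genes higher and 3 lower, where 18.1% and 26.6% of all genes were called in those directions and 44.7% in either. Without LNCaP overexpression replicate 1 the counts were 15 higher and 7 lower, against 26.8% and 35.4% of all genes and 62.2% in either direction. The median over the 31 genes was 0.39, against -0.10 over all genes. The steps toward cholesterol held most of the positive differences: 3 of the 6 mevalonate pathway genes and 5 of the 9 sterol step genes were called higher and none lower. The 3 mevalonate genes were HMGCS1, IDI1, whose probe sets disagree, and MVD, which read under 4 on all LNCaP arrays.

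IDI1 differed by 2.43 ± 0.15 (adjusted p = 4.16e-09) on the probe set used, by 2.45 on 208881_x_at and by -1.30 (adjusted p = 0.0167) on 233014_at, so its direction is uncertain here too. STARD4 differed by 2.15 ± 0.42 (adjusted p = 0.000588), as it fell in 22Rv1 and was not called in LNCaP, and by 1.63 without LNCaP overexpression replicate 1. HMGCS1 differed by 1.32 (adjusted p = 0.00527), with a fall in 22Rv1 and no call in LNCaP, and by 0.91 without that array. TM7SF2 differed by 1.21 (adjusted p = 0.000147), with no call in 22Rv1 and a rise in LNCaP.

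ELOVL5 differed by -1.48 ± 0.20 (adjusted p = 2.26e-05), with a fall in LNCaP and no call in 22Rv1. SREBF1 fell in both lines on the probe set used, and the difference of -0.79 (adjusted p = 0.0438) was lost when any 1 of 10 of the 12 arrays was left out. Its second probe set differed by 0.22 and was not called. ACLY differed by -0.28 on the probe set used, with the call lost without any 1 of 8 arrays, and by 1.77 on probe set 210337_s_at, so its direction is uncertain. FASN and SCD were not called as different between the lines with all arrays (-1.04 and -0.59), and were without LNCaP overexpression replicate 1 (-1.53, adjusted p = 0.0106, and -1.20, adjusted p = 0.00606).

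Promoter sequences from RefSeq on build GRCh38.p14, running from 250 bases before to 50 after an annotated start, were read for 28 of the 31 genes (39 entries, since a gene can have several starts). ACAT2, FASN and SQLE had none in the table used. They are described because most of these genes moved together in 22Rv1 cells and because NF-Y, which binds CCAAT, is known to act beside the SREBPs on sterol genes. CCAAT, searched on both strands, stood in promoters of 23 of the 28 genes (82.1%), against 39.7% of 27305 genes in the table. The SP1 box GGGCGG stood in 26 of 28 (92.9%), against 48.3%, and the E-box CACGTG in 5 (17.9%), against 8.77%. The strict sterol regulatory element TCACNCCAC stood in 1, SREBF2 (3.57%), against 1.39%. Of the ONECUT cores, ATCGAT stood in 1 of the 28 genes, again SREBF2, against 0.938% of all, and ATTGAT in 0, against 7.64%. None of the 56 CCAAT matches overlapped a match of another motif. These are matches of letters in a window, not sites.

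The 6 promoters below include the pairs that were called in opposite directions with overexpression in both lines. The others are the farnesyl diphosphate synthase, which fell in both lines, and the only promoter with a sterol regulatory element. FDPS is at chr1:155308616-155308915 on the plus strand, SCD at chr10:100346983-100347282 on the plus strand, SCD5 at chr4:82798747-82799046 on the minus strand, INSIG1 at chr7:155297628-155297927 on the plus strand, INSIG2 at chr2:118088221-118088520 on the plus strand and SREBF2 at chr22:41832855-41833154 on the plus strand. Each runs 5′ to 3′, and capitals mark CCAAT on either strand, TCACNCCAC and ATCGAT.
FDPS: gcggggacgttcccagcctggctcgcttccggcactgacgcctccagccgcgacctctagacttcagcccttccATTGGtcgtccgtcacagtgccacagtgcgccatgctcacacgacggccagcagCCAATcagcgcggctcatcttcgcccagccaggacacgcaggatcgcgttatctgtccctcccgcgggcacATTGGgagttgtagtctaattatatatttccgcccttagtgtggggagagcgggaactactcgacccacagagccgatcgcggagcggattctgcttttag
SCD: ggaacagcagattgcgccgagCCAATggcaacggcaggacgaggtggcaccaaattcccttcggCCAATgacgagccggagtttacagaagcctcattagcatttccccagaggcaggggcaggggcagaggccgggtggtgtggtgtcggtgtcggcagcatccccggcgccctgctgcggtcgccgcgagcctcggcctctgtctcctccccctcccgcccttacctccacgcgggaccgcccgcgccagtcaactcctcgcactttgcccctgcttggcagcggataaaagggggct
SCD5: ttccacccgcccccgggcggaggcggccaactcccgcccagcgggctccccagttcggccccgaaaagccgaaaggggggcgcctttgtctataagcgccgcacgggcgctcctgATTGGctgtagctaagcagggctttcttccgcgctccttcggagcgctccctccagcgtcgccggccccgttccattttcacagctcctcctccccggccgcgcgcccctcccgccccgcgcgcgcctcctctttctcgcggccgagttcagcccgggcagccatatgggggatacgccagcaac
INSIG1: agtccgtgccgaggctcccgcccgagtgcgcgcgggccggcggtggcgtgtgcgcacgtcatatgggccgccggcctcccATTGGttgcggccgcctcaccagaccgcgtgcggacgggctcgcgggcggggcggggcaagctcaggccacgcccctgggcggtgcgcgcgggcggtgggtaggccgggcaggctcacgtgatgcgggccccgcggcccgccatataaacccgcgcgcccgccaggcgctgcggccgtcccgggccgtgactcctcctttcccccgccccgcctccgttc
INSIG2: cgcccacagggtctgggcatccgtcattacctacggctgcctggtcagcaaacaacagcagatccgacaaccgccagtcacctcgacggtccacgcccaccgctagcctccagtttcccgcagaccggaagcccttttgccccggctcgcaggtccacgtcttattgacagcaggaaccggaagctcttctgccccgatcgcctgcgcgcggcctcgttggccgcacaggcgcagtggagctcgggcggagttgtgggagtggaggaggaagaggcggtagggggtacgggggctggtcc
SREBF2: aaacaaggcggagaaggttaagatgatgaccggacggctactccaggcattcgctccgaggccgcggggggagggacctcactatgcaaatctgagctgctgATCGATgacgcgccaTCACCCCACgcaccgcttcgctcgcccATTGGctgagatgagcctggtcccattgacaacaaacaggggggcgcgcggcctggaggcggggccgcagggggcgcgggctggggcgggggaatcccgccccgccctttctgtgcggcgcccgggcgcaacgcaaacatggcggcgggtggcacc
FDPS holds 3 CCAAT matches, SCD 2, SCD5 and INSIG1 1 each and INSIG2 none in this entry.

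The arrays labelled ONECUT2 shRNA had higher values of these genes than the scramble arrays. Of the 31 genes 18 were called higher and 1 lower, where 13.4% and 16.1% of all genes were called in those directions and 29.5% in either. The median log2 difference was 0.68, against -0.03 over all genes, and 28 of 31 differences were positive. The arrays of the groups did not overlap for 26 of the 31 genes, where 53.6% of all genes did not overlap. On 230271_at, 239911_at and 233446_at ONECUT2 was also higher on these arrays than on the scramble arrays, against the label. On the same probe sets it was lower on the scramble arrays than in 22Rv1 control.

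SCD gave 12.70, 12.88 and 12.69 on the arrays labelled ONECUT2 shRNA, against 10.74, 10.80 and 10.94 in scramble, a difference of 1.93 ± 0.39 (adjusted p = 0.0014). HMGCS1 gave 12.10, 12.10 and 12.30, against 10.54, 10.30 and 10.82, a difference of 1.61 (adjusted p = 0.000107). ACACA gave 8.53, 8.73 and 8.71, against 7.30, 7.18 and 7.31, a difference of 1.39 (adjusted p = 0.00044). In all 3 genes the groups were over 1 log2 unit apart at their nearest arrays.

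SQLE gave 11.20, 11.24 and 11.26 on the arrays labelled ONECUT2 shRNA, against 9.91, 9.91 and 9.95 in scramble, a difference of 1.31. TM7SF2 was the only gene called lower, with 8.85, 9.10 and 8.86, against 9.99, 9.99 and 10.04, a difference of -1.07 (adjusted p = 3.34e-05). HSD17B7 at 1.23, LSS, the lanosterol synthase, at 1.21, DHCR7 at 1.08, FADS2 at 1.03, IDI1 at 1.00, FDPS at 0.78 and MVD at 0.63 were called higher. MVK, NSDHL and ACAT2, at 0.46, 0.44 and 0.35, were called as well. The MVK call was lost without scramble replicate 3 (adjusted p = 0.0728) or shRNA replicate 2 (adjusted p = 0.0669), and the MVD call without shRNA replicate 2 (adjusted p = 0.0556).

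Among the regulators, SREBF1 gave 9.18, 9.25 and 8.64 on the arrays labelled ONECUT2 shRNA, against 8.13, 7.79 and 7.79 in scramble, a difference of 1.12 (adjusted p = 0.000861). SREBF2 gave 6.23, 6.22 and 5.99, against 5.61, 5.56 and 5.57, a difference of 0.56 (adjusted p = 0.0152), which was lost without shRNA replicate 1 (adjusted p = 0.0547) or 2 (adjusted p = 0.0546). INSIG1 gave 12.11, 11.98 and 12.04, against 10.83, 10.61 and 10.99, a difference of 1.24 (adjusted p = 0.00829). All 3 were separate between the groups.

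INSIG2 gave 6.71, 6.70 and 6.77 on the arrays labelled ONECUT2 shRNA, against 6.66, 6.71 and 7.08 in scramble, and SCAP gave 6.82, 6.82 and 6.79, against 6.88, 6.89 and 6.63. Both overlapped and were not called. SCD5 gave 5.00, 4.58 and 4.0, against 3.84, 3.89 and 4.39, with overlap and no call (difference 0.49). ELOVL6 gave 11.96, 12.08 and 12.03, against 11.03, 10.85 and 11.19, a difference of 1.00 (adjusted p = 0.00111), and ELOVL5 gave 12.91, 12.57 and 12.23, against 12.70, 12.67 and 12.73, with no call. FADS2 gave 6.88, 6.93 and 6.58, against 5.76, 5.86 and 5.68, with no overlap.

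Of the 18 genes higher on the arrays labelled ONECUT2 shRNA than in scramble, 14 (77.8%) were among the 18 that fell with overexpression in 22Rv1, and 7 (38.9%) were among the 10 that fell in LNCaP (70.0% of the 10). The first share stands beside the 58.1% of all 31 genes that fell in 22Rv1 overexpression. Among all genes, 34.1% of those higher on the arrays labelled ONECUT2 shRNA fell in 22Rv1 overexpression and 28.3% in LNCaP overexpression. These comparisons use different control arrays, and no test of the overlap was run. TM7SF2, lower here, was higher in LNCaP overexpression.

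**Figure D4:**
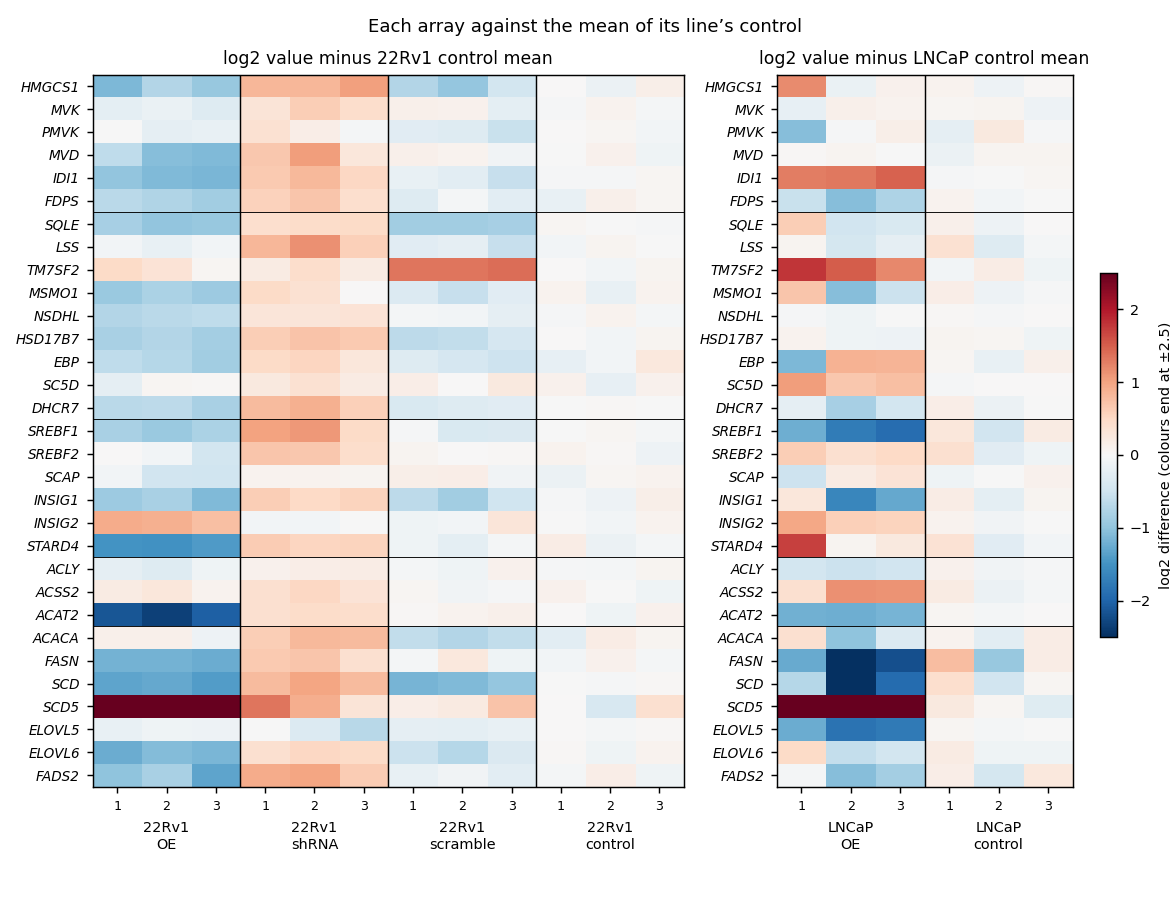
Log2 value of each gene (rows, by role) on each array (columns) minus the mean of the control arrays of the same line, in red where higher and blue where lower. In 22Rv1 the arrays labelled ONECUT2 shRNA are mostly red and the overexpression arrays mostly blue, and the scramble arrays also differ from control, with TM7SF2 higher by 1.35 and SQLE lower by 0.86.

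The scramble arrays were not level with the 22Rv1 controls. Against the controls 4 genes were lower and 1 higher, where 9.40% and 12.5% of all genes were called in those directions. The arrays did not overlap for 16 of the 31, against 50.0% of all genes. A fit to only the 6 arrays compared called 14 lower, so the count depends on how the spread is pooled. This comparison shares the scramble arrays with the one above and the control arrays with 22Rv1 overexpression. TM7SF2 gave 9.99, 9.99 and 10.04 in scramble, against 8.67, 8.58 and 8.72 in 22Rv1 control, and rose by 1.35 (adjusted p = 5.07e-06). SQLE gave 9.91, 9.91 and 9.95, against 10.83, 10.78 and 10.75, and fell by 0.86 (adjusted p = 0.00379).

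HSD17B7 gave 8.84, 8.88 and 9.07 in scramble, against 9.49, 9.43 and 9.56 in 22Rv1 control, and fell by 0.57 (adjusted p = 0.00046). HMGCS1 gave 10.54, 10.30 and 10.82, against 11.27, 11.13 and 11.40 (difference -0.71, adjusted p = 0.0446), and IDI1 gave 10.39, 10.31 and 10.00, against 10.55, 10.54 and 10.62 (difference -0.34, adjusted p = 0.0297). The HMGCS1 call was lost without any 1 of 5 of the 6 arrays and the IDI1 call without any 1 of 4. SCD at -1.07, INSIG1 at -0.68 and SREBF1 at -0.26 were not called on the probe sets used. Yet SCD gave 10.74, 10.80 and 10.94, against 11.89, 11.87 and 11.94, with no overlap. INSIG1 gave 10.83, 10.61 and 10.99, against 11.46, 11.37 and 11.63, also with no overlap. The pooled SE takes in LNCaP overexpression, where the SD was 1.20 for SCD and 1.02 for INSIG1. INSIG1 probe set 201625_s_at was called lower at -1.19 (adjusted p = 0.0308). INSIG1 201627_s_at, at -0.80, and SCD 200831_s_at, at -0.51, were not called. The ribosomal RNA control probe sets were lower in scramble than in both other groups: that of the 5 prime part averaged 9.17 ± 0.43 on the arrays labelled ONECUT2 shRNA and 7.47 ± 0.19 in scramble, beside 8.93 ± 0.19 in 22Rv1 control (SD, n = 3 each). In 22Rv1 overexpression it averaged 5.50 ± 0.59. The part of this in the results was not tested.

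The control cells of the lines differed for 22 of the 31 genes, 11 higher and 11 lower in LNCaP control than in 22Rv1 control, where 30.2% and 33.5% of all genes were called in those directions and 63.6% in either. The arrays did not overlap for 25 of the 31, against 79.0% of all genes. FADS2 gave 8.52, 7.92 and 8.62 in LNCaP control, against 5.90, 6.11 and 5.84 in 22Rv1 control, a difference of 2.40 (adjusted p = 1.33e-07). INSIG2 gave 8.73, 8.55 and 8.63, against 6.76, 6.70 and 6.85 (difference 1.87), and SCD5 gave 5.54, 5.35 and 5.00, against 3.68, 3.27 and 4.07 (difference 1.62). None of these groups overlapped.

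ELOVL5 gave 14.45, 14.35 and 14.37 in LNCaP control, against 12.94, 12.87 and 12.96 in 22Rv1 control (difference 1.47), and SREBF1 gave 9.58, 8.81 and 9.49, against 8.15, 8.22 and 8.12 (difference 1.13). The second SREBF1 probe set differed by -0.01 and was not called. Lower in LNCaP control were STARD4, with 7.86, 7.22 and 7.43, against 9.45, 9.12 and 9.20 (difference -1.75), and HMGCS1, with 10.47, 10.24 and 10.41, against 11.27, 11.13 and 11.40 (difference -0.89). ELOVL6 gave 10.95, 10.64 and 10.64, against 11.58, 11.45 and 11.64 (difference -0.81, and -4.80 on 227491_at). LSS gave 9.97, 9.27 and 9.56, against 10.18, 10.31 and 10.24 (difference -0.65). For ELOVL5, STARD4, HMGCS1 and LSS, as for the higher genes, the arrays of the lines were separate. SREBF2 differed by -0.42 with overlapping arrays (adjusted p = 0.032), a call lost without any 1 of 4 arrays. SCD, FASN, INSIG1 and SCAP were not called between the lines on the probe sets used. SCD probe set 200831_s_at was higher in LNCaP control by 0.86 (adjusted p = 0.0154). INSIG1 probe set 201625_s_at was higher by 1.03 (adjusted p = 0.0237), while 201627_s_at differed by -0.66 and was not called.

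Other genes of lipid handling were read from lists of neighbouring pathways. Their counts stand beside 36.5% of all genes higher and 24.3% lower in 22Rv1 overexpression, 34.1% higher and 28.0% lower in LNCaP overexpression, and 13.4% higher and 16.1% lower on the arrays labelled ONECUT2 shRNA. In 22Rv1 overexpression 10 of 17 genes (58.8%) of sterol transport, storage and efflux rose and 2 (11.8%) fell. ABCG1, which exports sterols, gave 9.64, 9.88 and 9.63, against 6.03, 5.59 and 5.57 in 22Rv1 control, a difference of 3.99. NPC2, which carries cholesterol out of lysosomes, rose by 1.35 in 22Rv1 overexpression and by 1.95 in LNCaP overexpression. MYLIP, a ubiquitin ligase that lowers lipoprotein receptors, rose by 1.77 in 22Rv1 and by 0.52 in LNCaP.

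In LNCaP overexpression 10 of these 17 genes rose and 4 fell. ABCG1 gave 10.04, 10.82 and 10.74, against 7.87, 6.97 and 7.53 in LNCaP control, a difference of 3.07. NPC1, the membrane partner of NPC2, gave 9.54, 8.86 and 9.27, against 11.41, 10.88 and 11.25, and fell by 1.95, although it was 0.63 higher in 22Rv1 overexpression than in control. On the arrays labelled ONECUT2 shRNA 5 of the 17 were higher than in scramble and 1 lower.

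Of 11 genes of fatty acid activation and lipid storage, 9 rose and none fell in 22Rv1 overexpression, and 4 rose and 3 fell in LNCaP. ACSL4, which activates polyunsaturated fatty acids, gave 5.93, 6.23 and 5.91 in 22Rv1 overexpression, against 3.70, 3.43 and 3.89 in control, and 7.24, 7.61 and 7.36 in LNCaP overexpression, against 3.33, 2.53 and 2.75 in control. Since all controls read under 4, it was at least 4.07-fold higher in 22Rv1 and at least 10.6-fold higher in LNCaP. LPIN2 and AGPAT1, which act in glycerolipid synthesis, rose by 1.55 and 1.37 in 22Rv1.

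Of 7 genes of citrate and NADPH supply, 5 fell and 1 rose in 22Rv1 overexpression, and 4 fell and 1 rose in LNCaP. PGD of the pentose phosphate pathway gave 6.30, 5.72 and 5.43 in 22Rv1 overexpression, against 7.95, 7.76 and 7.85 in control (difference -2.04), while in LNCaP it was higher by 0.50. TKT of the same pathway fell by 1.32 in 22Rv1 and by 0.96 in LNCaP. ACO1 rose by 1.27 in 22Rv1. Among 12 other genes of elongation and desaturation, 4 fell and 2 rose in 22Rv1 and 3 fell and 5 rose in LNCaP. ELOVL2 fell by 2.33 in 22Rv1 and by 1.81 in LNCaP. FADS3 rose by 1.26 in 22Rv1 and by 1.31 in LNCaP, and ELOVL4 rose by 2.77 in LNCaP.

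Of 11 genes of the isoprenoid branches, 6 fell and 4 rose in 22Rv1, and 5 fell and 3 rose in LNCaP; the shares that rose, 36.4% and 27.3%, were near or under those of all genes. COQ2, of coenzyme Q synthesis, fell by 1.46 in 22Rv1 and by 1.03 in LNCaP, while DHDDS rose by 1.29 in 22Rv1. Of 16 mitochondrial fatty acid oxidation genes, 7 fell and 6 rose in 22Rv1, and 3 fell and 5 rose in LNCaP; the shares that rose, 37.5% and 31.2%, were near those of all genes. HADH fell by 1.16 in 22Rv1 and by 1.20 in LNCaP, and HADHB rose by 0.64 and 0.66. On the arrays labelled ONECUT2 shRNA 8 of the 16 were lower than in scramble and 2 higher.

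**Figure D5:**
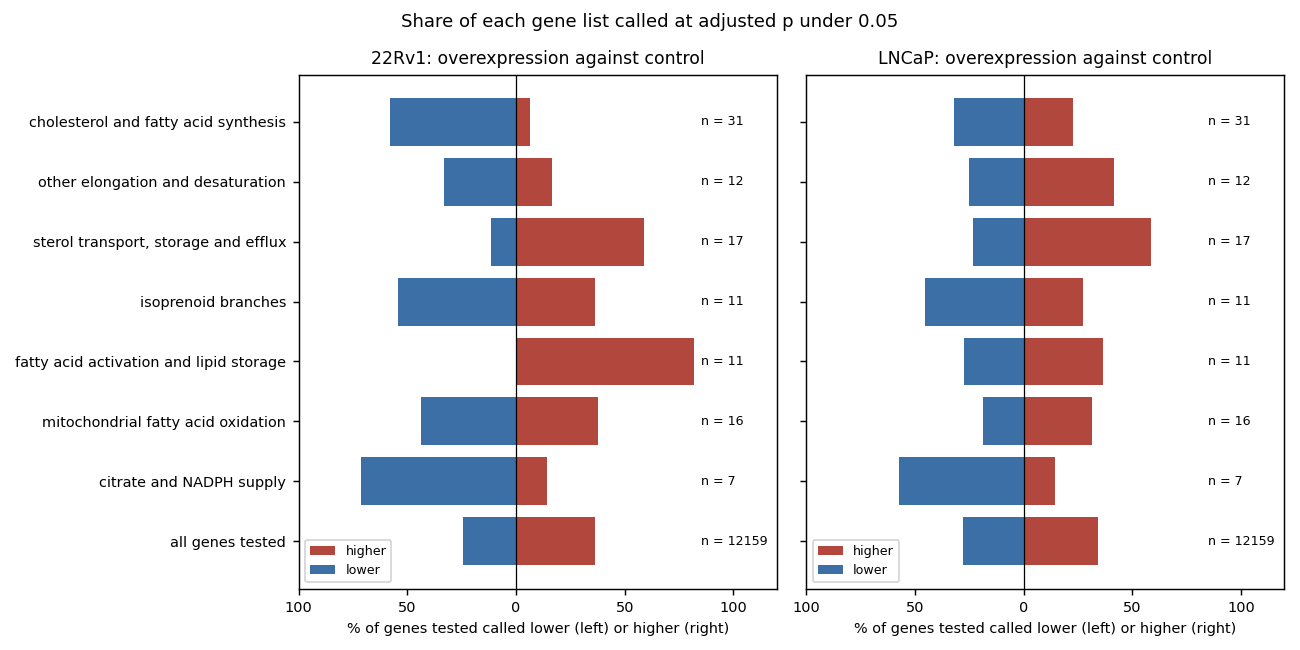
Percent of the genes tested in each list that were called lower (left, blue) or higher (right, red) with overexpression in 22Rv1 and in LNCaP, with all genes tested at the bottom. In 22Rv1 the bar of cholesterol and fatty acid synthesis reaches to the left (18 of 31 lower) while those of sterol transport and of lipid storage reach to the right (10 of 17 and 9 of 11 higher).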

How the data were processed

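Total RNA of 18 samples was measured on Affymetrix U133 Plus 2.0 arrays, 3 in each of 6 groups given by the sample titles. The log2 values used are those the authors deposited, made with GCRMA per the submitters' processing notes, a method with a sequence-based background correction, quantile normalization between arrays and a summary per probe set. The version used, and which arrays were processed jointly, is not given in the sources used here. Probe sets were named through the platform annotation supplied: of 54675, 41097 carried 1 gene symbol (41043 updated through the gene identifier), 1801 several, and 62 were platform controls. Array medians lay between 3.26 and 3.34, and the number of arrays limits the precision.

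All arrays entered 1 limma fit (limma 3.58.1, R 4.3.3) with a mean per group and moderation with trend and robust options. Benjamini-Hochberg adjustment ran over the 12159 genes tested, and genes were called under 0.05. Where the lower group read under 4 on its 3 arrays, a fold is given as at least the distance from 4. The fit was tested on simulated data. Overexpression was compared with control in each line, these effects with each other, the arrays labelled ONECUT2 shRNA with scramble, scramble with control, and the lines' controls. Other settings tried were 2 scalings, the filter, the mean of all probe sets of a gene, plain moderation, array weights and a replicate block. Further settings were only the arrays compared, each array left out and, added after seeing the data, values under 4 set to 4. An array was left out only in the comparisons that use its group.

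The genes and the lists were chosen with earlier results of these data known. In each comparison, values on every array are given for the 4 largest rises and 4 largest falls among called genes whose arrays do not overlap, for the SREBP system, and for the pairs SCD and SCD5, INSIG1 and INSIG2, SREBF1 and SREBF2, and ELOVL5 and ELOVL6, and of each neighbouring list at most 3 called genes were named by smallest adjusted p in the overexpression comparisons.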

Additional observations from a re-analysis of the deposited data

Results flagged for a closer look

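For 16 genes the overexpression effect in LNCaP differed from that in 22Rv1 in the test of the difference itself (limma, adjusted p under 0.05). Each value is the log2 effect in LNCaP minus the log2 effect in 22Rv1, over 12 arrays, and positive where LNCaP lay higher.

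In the mevalonate pathway the difference was 2.43 for IDI1 on the probe set used, which rose in LNCaP and fell in 22Rv1, though 233014_at gave -1.30 (adjusted p = 0.0167). It was 1.32 for HMGCS1, which fell in 22Rv1 and was not called in LNCaP. MVD gave 0.96, but it read under 4 on all LNCaP arrays and in 22Rv1 overexpression, and with values under 4 set to 4 the difference was 0.22 (adjusted p = 0.357). Among the sterol steps SQLE differed by 0.85, NSDHL by 0.64 and HSD17B7 by 0.75, and all 3 fell in 22Rv1 and were not called in LNCaP. TM7SF2 differed by 1.21 and SC5D by 0.87, and both rose in LNCaP and were not called in 22Rv1.

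Of the regulators and transporters, SREBF1 differed by -0.79 on the probe set used, with the larger fall in LNCaP, and by 0.22, not called, on its second probe set. SREBF2 differed by 0.68, with a rise in LNCaP and no call in 22Rv1, and this call was lost without any 1 of 4 arrays (adjusted p = 0.0555 without 22Rv1 control replicate 1, 0.0727 without 22Rv1 overexpression replicate 3, and 0.0707 and 0.0571 without LNCaP control replicates 2 and 3). STARD4 differed by 2.15, with a fall in 22Rv1. Of the genes of acetyl-CoA supply, ACAT2 differed by 0.98, with the larger fall in 22Rv1, and ACLY by -0.28. ACSS2 differed by 0.70, with a rise in LNCaP, a call lost without any 1 of 5 arrays (adjusted p = 0.0554 without 22Rv1 control replicate 1, 0.0545 without 22Rv1 overexpression replicate 3, 0.059 without LNCaP control replicate 2, and 0.0575 and 0.0605 without LNCaP overexpression replicates 2 and 3).

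Of the fatty acid genes ELOVL5 differed by -1.48, with a fall in LNCaP, and ELOVL6 by 0.96, with a fall in 22Rv1. Without LNCaP overexpression replicate 1 the difference was 0.62 for ELOVL6, 0.50 for SQLE and 0.91 for HMGCS1, and all were still called.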

How the results depend on the processing

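Across all settings and genes, 2 values changed direction where either setting called them, and 92 that neither setting called changed sign, such as HMGCS1 and PMVK in LNCaP without overexpression replicate 1 (-0.03 and 0.06, against 0.38 and -0.31 with all arrays). INSIG1 differed between the lines by 0.06 with all arrays and by -0.52 to 0.44 without single arrays, the first without LNCaP overexpression replicate 1, the highest array of its group. ACLY differed by -0.28 on the probe set used and by 0.56 as the mean of its probe sets, which disagree. Elsewhere 99 values gained a call and 97 lost it with the same direction, and 2860 kept call and sign. With values under 4 set to 4, chosen after seeing the data, only MVD lost calls (22Rv1 overexpression, the difference between lines, and the lines' controls). The 3 genes called lower in the difference between lines became 1 with no filter, 1 with the mean of all probe sets and 1 with only the arrays compared, and 1 to 7 without single arrays (7 without LNCaP overexpression replicate 1). For scramble against 22Rv1 control the 4 genes called lower became 8 after quantile normalization, 15 with array weights, 14 with only the arrays compared and 2 to 3 without single arrays, and all genes called there went to 6419 with array weights and 4630 with only the arrays compared, from 2659. With array weights 6848 of all genes were called for the arrays labelled ONECUT2 shRNA against scramble, beside 3592. The weights were 0.058, 0.370 and 0.030 for LNCaP overexpression replicates 1, 2 and 3. Those of all other arrays lay between 0.66 and 4.87. The cause was not tested.

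The replicate numbers were not taken to pair the arrays: same-numbered arrays of 22Rv1 overexpression and control correlated at -0.15, -0.22 and -0.04 in their deviations from the group means, those of LNCaP at 0.09, 0.08 and 0.02, those labelled ONECUT2 shRNA and scramble at 0.11, 0.06 and 0.32, and scramble and 22Rv1 control at -0.05, 0.43 and 0.34. In each of these, at least 1 pair lay at 0.1 or less. These correlations run over all genes tested, while SCD and FASN had the same replicate order in both LNCaP groups. With the number as a replicate block 18 of the 31 genes fell in 22Rv1 overexpression and 2 rose, 10 fell and 8 rose in LNCaP, and 19 were higher on the arrays labelled ONECUT2 shRNA. Signal over background limits SCD5 in 22Rv1 control, which read near or under 4. It also limits MVD, whose means were 3.28 in 22Rv1 overexpression, 3.78 in LNCaP overexpression and 3.75 in LNCaP control. In the other groups the MVD means lay between 4.22 and 4.88.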
